A study of Rattus norvegicus with 38 samples.

Results

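Chemokines and their receptors were followed as a gene family in 38 rat liver RNA-seq libraries. A gene belonged to the family when its name in the authors' count table began with Ccl, Cxcl, Xcl, Cx3cl, Ccr, Cxcr, Xcr, Cx3cr or Ackr and a number. That rule took 56 of 31038 gene names, of which 34 encode ligands, 18 encode signalling receptors and 4 encode atypical receptors. The rule used no measured value. Of the 56 members, 43 had enough counts to be tested (26 ligands, 13 receptors and all 4 atypical receptors), alongside 14786 tested genes in all.

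The livers came from Sprague-Dawley rats killed on day 28, and the group names used here are short forms of the labelled treatments. LPS-treated groups had lipopolysaccharide (LPS, a bacterial cell wall component that activates innate immunity) by intraperitoneal injection: 5 rats with LPS alone (LPS), 5 with EF (LPS_EF), 4 with EF and PF (LPS_EF_PF) and 5 with EF and RD (LPS_EF_RD). Groups without LPS were EF with 5 rats, EF_PF with 5, EF_RD with 4 and control with 5. EF, PF and RD are extracts that were gavaged, EF and PF at 2.5 g/kg each and RD at 200 mg/kg, and PF and RD were only given together with EF. An LPS group and the group with the same extracts but no LPS are called an arm here: the plain LPS arm (LPS against control), the EF arm (LPS_EF against EF), the EF_PF arm (LPS_EF_PF against EF_PF) and the EF_RD arm (LPS_EF_RD against EF_RD). The sources used here state neither dose nor timing of LPS, nor sex or age of the rats.

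Chemokines are small secreted proteins that direct leukocyte migration through G protein-coupled receptors on the moving cell. The spacing of their amino-terminal cysteines divides them into CC, CXC, XC and CX3C classes. CXC ligands of CXCR2 draw neutrophils, CXC ligands of CXCR3 draw activated T and NK cells, and many CC ligands draw monocytes. Atypical receptors bind chemokines without classical G protein signalling and remove or transport them. In liver, Kupffer cells, sinusoidal endothelium, stellate cells and hepatocytes all can produce chemokines.

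Library totals ran from 19716622 to 35835012 assigned read pairs. Levels are given as CPM, counts relative to library size with TMM scaling, and levels of different genes are compared only in the authors' TPM, a relative transcript abundance corrected for gene length. Values of a group follow the order of the replicate numbers in the labels, which run from 1 in LPS, EF and EF_RD, from 3 in LPS_EF and control, and are 1, 3, 4 and 6 in LPS_EF_PF, 1, 2, 4, 6 and 8 in LPS_EF_RD and 1, 2, 3, 5 and 6 in EF_PF. The labels call the cell type hepatocyte, yet the summed level of 8 Kupffer cell markers was 353 to 1511 CPM, so the libraries hold RNA of other liver cells too. Of 6 hepatocyte markers, 4, 1, 4 and 1 were lower with LPS in the plain LPS, EF, EF_PF and EF_RD arms and none was higher. Their summed level was 88095 to 115217 CPM in LPS livers, against 122518 to 157985 CPM in control livers. In the EF arm it was 106161 to 149115 CPM in LPS_EF livers, against 101043 to 147318 CPM in EF livers. With PF and with RD it was 101539 to 110247 CPM in LPS_EF_PF livers, against 124954 to 153365 CPM in EF_PF livers, and 92844 to 150145 CPM in LPS_EF_RD livers, against 110609 to 127939 CPM in EF_RD livers. Their part in the member results was not tested. In such bulk RNA, fewer cells of a type and less RNA per cell cannot be told apart.

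Several libraries stood apart from their groups. LPS_EF 7 and LPS_EF_RD 6 had summed monocyte and neutrophil markers of 20.5 and 26.6 CPM, the lowest of the LPS-treated livers, and Cxcl9 at 4.75 and 15.6 CPM. Without LPS, EF 1 and EF_RD 1 had the highest sums of those markers, 44.7 and 21.1 CPM, and EF_RD 1 also had 3365 CPM of skeletal muscle markers. Control 5 and LPS 3 carried exocrine pancreas markers at 1665 and 1038 CPM. LPS 3 also had 301 CPM of muscle markers. Counts of called genes are therefore also given without these 6 libraries, a set that was chosen after seeing the data. LPS_EF 7, LPS_EF_RD 6, EF 1 and EF_RD 1 stood apart in part by marker or Cxcl9 levels that also differ with LPS. Leaving out low LPS-treated livers and high reference livers can by itself widen LPS differences. Calls gained without the 6 libraries are therefore not independent support.

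Chemokine and receptor transcripts were called higher with LPS in every arm of the study, and a few were called lower. Against control livers, 17 members were higher in LPS livers and 3 were lower (edgeR quasi-likelihood test, Benjamini-Hochberg adjusted p under 0.05), which is 46.5% of the 43 tested against 36.8% of all genes. Among all genes 18.6% were called higher and 18.1% lower. LPS_EF against EF livers gave 10 higher and 4 lower members, or 32.6%, beside 29.1% of all genes, with 14.6% higher and 14.5% lower. LPS_EF_PF against EF_PF livers gave 22 higher and 3 lower, or 58.1%, beside 36.5% of all genes, with 19.2% higher and 17.3% lower. LPS_EF_RD against EF_RD livers gave 17 higher and 3 lower, or 46.5%, beside 23.5% of all genes, with 12.8% higher and 10.7% lower. The called share of members was near that of all genes in the EF arm and above it in the other arms, and most member calls were to higher values while those of all genes were close to evenly split. With only the groups compared in the fit, the calls of Cxcr3, Cxcr6 and Ccr6 in the plain LPS arm were lost, as were those of Cxcr3, Cxcl10, Ccl24 and Ccl9 in the EF arm and of Cxcr6, Cxcl14, Cxcl1, Ccl24, Ccr7, Ccl3 and Ccl2 in the EF_RD arm.

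Median log2 fold changes of the 43 members were 0.64 in LPS against control, 0.43 in LPS_EF against EF, 0.84 in LPS_EF_PF against EF_PF and 0.80 in LPS_EF_RD against EF_RD livers. The median of all genes lay between -0.02 and 0.00 in these comparisons. With library totals as the scale, the all-gene median moved by 0.13 in LPS against control and by 0.17 in LPS_EF_PF against EF_PF livers, and turned no called member round. Under that scaling the share of all calls that were higher went to 72.0% in LPS against control livers, in place of 50.6%, while the members' share was 85.7% in place of 85.0%. Without the 6 libraries that stood apart, the EF arm had 23 called members (18 higher and 5 lower) in place of 14, and 5947 of all genes in place of 4310. The same omission gave 18, 27 and 22 called members in the plain LPS, EF_PF and EF_RD arms.

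Across the 4 LPS comparisons, which share no library, 9 members were higher every time: the ligands Cxcl9, Cxcl14, Cxcl16, Ccl9 and Ccl19 and the receptors Cxcr3, Cxcr4, Cxcr6 and Cx3cr1. The eosinophil attractant Ccl24 was lower every time. Of all genes 7.55% were higher and 4.58% lower in all 4. Another 7 members were higher in 3 of them (Cxcl13, Ccl2, Ccl7, Ccr6, Ccr7, Cxcr2 and Xcr1), 3 in a pair of them (Ccl3, Ccl6 and Ccr1), and Ccl11, Ccl21 and Ackr3 in the EF_PF arm alone in the fit of all libraries. In all, 22 of the 43 tested members were higher in at least 1 LPS comparison, beside 26.9% of all genes. With the 6 libraries that stood apart left out, Ccl21 and Ackr3 were also called in the EF arm, and Ackr3 and Ccl11 in the EF_RD arm. Whether the response differed between arms was tested as an interaction, and no member was called in any of the 3 interactions (details with the extracts).

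**Figure D1:**
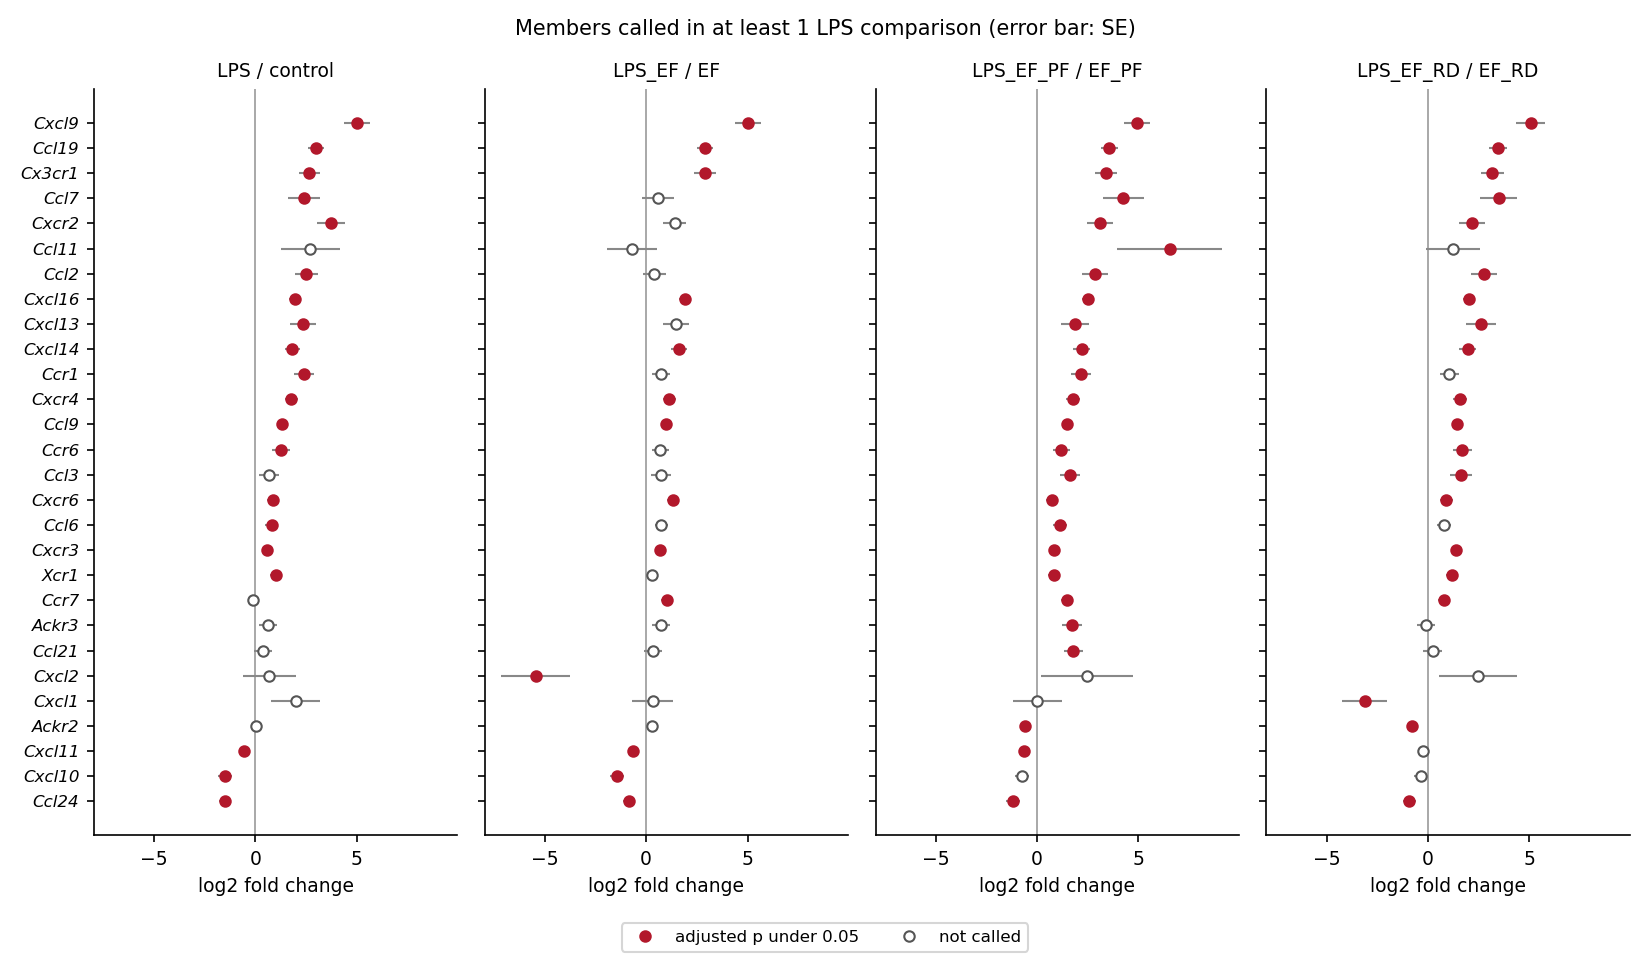
Log2 fold changes (x axis, error bars are SE) of the 28 members called in at least 1 LPS comparison, one panel per comparison, ordered by their mean. Filled points have an adjusted p under 0.05. Cxcl9 lies at about 5 in every panel, and Ccl24, Cxcl10 and Cxcl11 lie below 0 in every panel.

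Per length, ligand RNA in these livers was dominated by few genes. Ccl9, a rodent CC ligand of CCR1, made 35.3% to 54.9% of all ligand TPM in the 19 LPS-treated livers and 44.3% to 66.5% in the 19 without LPS. Cxcl9 had 2.19% to 43.9% of ligand TPM in LPS-treated livers, with a median of 33.6%, against 2.30% to 7.06% without LPS. Together with Ccl6 and Cxcl12 these genes made 87.6% to 96.8% of ligand TPM in LPS-treated livers and 74.6% to 92.4% in the others. The summed ligand TPM had a median of 2895 (744 to 3446) in LPS-treated livers and 854 (504 to 1284) without LPS. Shares of Cxcl12 and Ccl6 were lower in the median LPS-treated liver than in the median liver without LPS (4.77% against 12.6% and 12.4% against 21.5%).

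**Figure D2:**
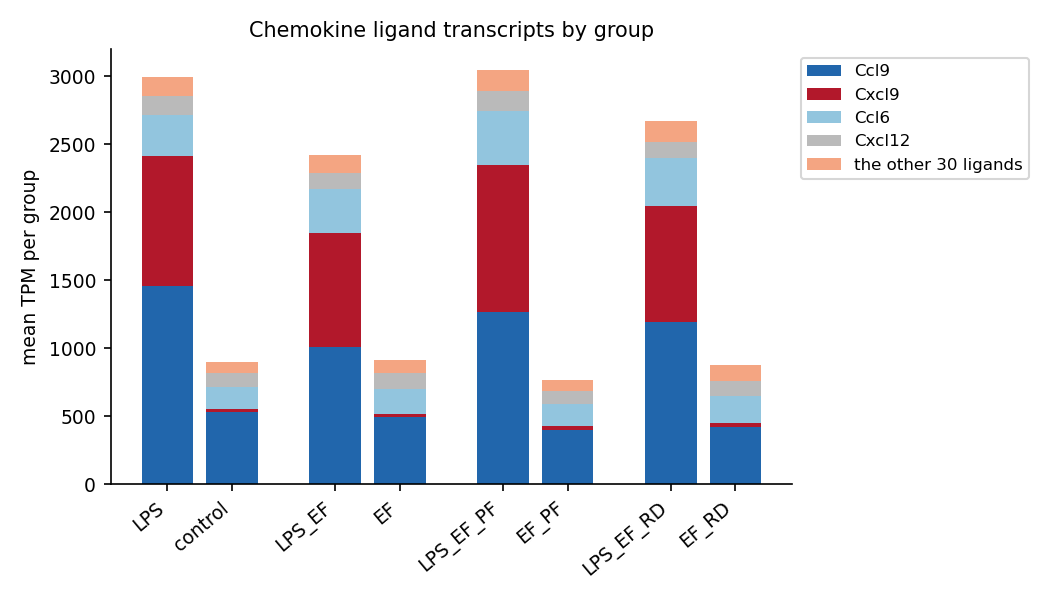
Stacked bars of mean ligand TPM per group (y axis), with LPS groups left of their references. Ccl9 is the largest part of every bar and Cxcl9 is the next largest in every LPS group and the thinnest of the 4 named parts in every group without LPS. The 30 remaining ligands share the top layer.

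Cxcl9, Cxcl10 and Cxcl11 encode the 3 ligands of CXCR3 and are classically induced by interferon-gamma. In the authors' annotation (rn6) they lie side by side on the plus strand of chromosome 14, with Cxcl11 at 17195395-17198170, Cxcl10 at 17210733-17212930 and Cxcl9 at 17228832-17233743. They did not move together. Cxcl9 rose about 5 on the log2 scale in every arm while Cxcl10 and Cxcl11 fell wherever they were called.

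The 250 bases before the annotated start of each are shown because the neighbours responded in opposite directions. They are RefSeq sequences of build GRCr8, plus strand, 5′ to 3′, at chr14:16006916-16007165 (Cxcl9), chr14:15988816-15989065 (Cxcl10) and chr14:15973478-15973727 (Cxcl11). Capitals mark matches, on either strand, to the κB consensus, to GAAA repeated after any 2 bases (the core of interferon-stimulated response elements, ISRE) or to TTCNNNGAA (a gamma-activated site core).
Cxcl9: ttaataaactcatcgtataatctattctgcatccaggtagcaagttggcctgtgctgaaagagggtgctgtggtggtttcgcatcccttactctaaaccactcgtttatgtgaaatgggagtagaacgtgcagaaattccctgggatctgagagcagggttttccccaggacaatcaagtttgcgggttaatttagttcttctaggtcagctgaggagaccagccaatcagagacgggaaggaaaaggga
Cxcl10: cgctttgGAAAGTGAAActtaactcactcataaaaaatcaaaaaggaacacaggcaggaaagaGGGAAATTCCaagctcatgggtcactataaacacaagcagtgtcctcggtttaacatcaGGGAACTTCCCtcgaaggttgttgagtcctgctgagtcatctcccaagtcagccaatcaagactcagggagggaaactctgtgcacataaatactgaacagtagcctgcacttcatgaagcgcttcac
Cxcl11: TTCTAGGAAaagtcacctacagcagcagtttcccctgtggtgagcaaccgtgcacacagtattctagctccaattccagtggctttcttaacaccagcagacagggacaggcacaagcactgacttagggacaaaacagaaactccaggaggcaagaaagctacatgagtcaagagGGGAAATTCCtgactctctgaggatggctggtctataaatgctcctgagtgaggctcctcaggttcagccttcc
The Cxcl10 stretch holds κB consensus matches and an ISRE match, and the Cxcl11 stretch holds a κB and a TTCNNNGAA match. The Cxcl9 stretch holds none of the 3 motifs before the start, and its entry has TTCTCTGAA from 33 to 41 bases after it. Among 24206 RefSeq promoter entries of 300 bases, searched on both strands, the κB consensus was in 7.58%, the ISRE core in 3.74% and TTCNNNGAA in 8.56%. Among the 42 members with an entry, 9 held the κB consensus, 2 held the ISRE core (Cxcl10 and Ccl19) and 6 held TTCNNNGAA. Such matches describe letters and are not evidence of binding.

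Cxcl9 stood at 185, 268, 256, 256 and 354 CPM in LPS livers, against 7.31, 7.71, 7.63, 8.2 and 9.43 CPM in control livers. Levels of Cxcl9 in the EF arm were 247, 432, 273, 271 and 4.75 CPM in LPS_EF livers, against 7.78, 9.04, 5.81, 10.4 and 5.03 CPM in EF livers. The plain LPS groups did not overlap, whereas LPS_EF 7 lay below all EF livers and the other LPS_EF livers lay far above. EF_PF arm values of Cxcl9 were 314, 373, 215 and 273 CPM in LPS_EF_PF livers, against 10.7, 7.44, 8.87, 5.98 and 15.8 CPM in EF_PF livers. EF_RD arm values of Cxcl9 were 339, 261, 300.3, 15.6 and 277 CPM in LPS_EF_RD livers, against 5.97, 8.51, 6.91 and 6.92 CPM in EF_RD livers. Groups were apart in both, and LPS_EF_RD 6 was the lowest of its group at 15.6 CPM. The log2 fold changes of Cxcl9 were 5.03 ± 0.64 in LPS against control livers (adjusted p = 1.75e-06), 5.01 ± 0.64 in LPS_EF against EF livers (adjusted p = 4.78e-06), 4.91 ± 0.64 in LPS_EF_PF against EF_PF livers (adjusted p = 1.93e-06) and 5.08 ± 0.7 in LPS_EF_RD against EF_RD livers (adjusted p = 2.47e-05), each kept in every omission of 1 library.

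Cxcl10 was low in all livers. It stood at 0.673, 0.948, 1.41, 0.857 and 0.633 CPM in LPS livers, against 2.0, 3.03, 1.91, 3.13 and 2.74 CPM in control livers. With EF, Cxcl10 was at 0.389, 0.843, 0.791, 0.941 and 2.51 CPM in LPS_EF livers, against 3.68, 4.45, 2.07, 3.15 and 1.52 CPM in EF livers. LPS livers lay below all control livers, and LPS_EF livers lay below their references except for LPS_EF 7. The values were 1.37, 1.12, 1.29 and 1.42 CPM in LPS_EF_PF livers, against 2.73, 2.55, 1.98, 1.48 and 2.07 CPM in EF_PF livers. With RD, Cxcl10 was at 1.52, 2.33, 1.14, 1.38 and 1.42 CPM in LPS_EF_RD livers, against 1.34, 2.76, 1.41 and 2.54 CPM in EF_RD livers. The EF_PF arm groups did not overlap and the EF_RD arm groups did. Cxcl10 fell by a log2 fold change of -1.5 ± 0.33 in LPS against control livers (adjusted p = 0.000798) and -1.43 ± 0.33 in LPS_EF against EF livers (adjusted p = 0.00152), while values of -0.74 ± 0.35 in LPS_EF_PF against EF_PF livers (adjusted p = 0.0952) and -0.36 ± 0.34 in LPS_EF_RD against EF_RD livers (adjusted p = 0.471) were not called. The EF_PF arm value was called lower with only the groups compared in the fit (-0.72, adjusted p = 0.0114). It was also called lower with a replicate block (-0.74, adjusted p = 0.0432) and without the 6 libraries that stood apart.

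Cxcl11 had higher counts than Cxcl10 and a narrower spread. Cxcl11 was at 10.3, 9.95, 7.88, 11.5 and 11.9 CPM in LPS livers, against 22.4, 12.2, 12, 13.9 and 14.6 CPM in control livers. The EF arm gave Cxcl11 levels of 10.3, 11.3, 9.65, 11.7 and 12 CPM in LPS_EF livers, against 13.6, 20.2, 16.4, 17.9 and 18.4 CPM in EF livers. Both pairs of groups were apart. Cxcl11 in the EF_PF arm was at 8.0, 9.19, 10.8 and 8.53 CPM in LPS_EF_PF livers, against 13.4, 14.6, 17.2, 14.5 and 12.5 CPM in EF_PF livers. In the EF_RD arm Cxcl11 was at 13, 8.58, 11.7, 16 and 9.69 CPM in LPS_EF_RD livers, against 14.2, 13.7, 13.2 and 15.1 CPM in EF_RD livers. Only the last pair overlapped. Cxcl11 fell in 3 arms, with log2 fold changes of -0.54 ± 0.15 in LPS against control livers (adjusted p = 0.00557), -0.66 ± 0.15 in LPS_EF against EF livers (adjusted p = 0.00151) and -0.66 ± 0.16 in LPS_EF_PF against EF_PF livers (adjusted p = 0.00179), and was not called in the last at -0.26 ± 0.16 in LPS_EF_RD against EF_RD livers (adjusted p = 0.252). Reads of Cxcl10 and Cxcl11 lie within an intron of Art3 on the opposite strand, a gene with 29.7 counts per library on average, and counting took no account of strand.

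**Figure D3:**
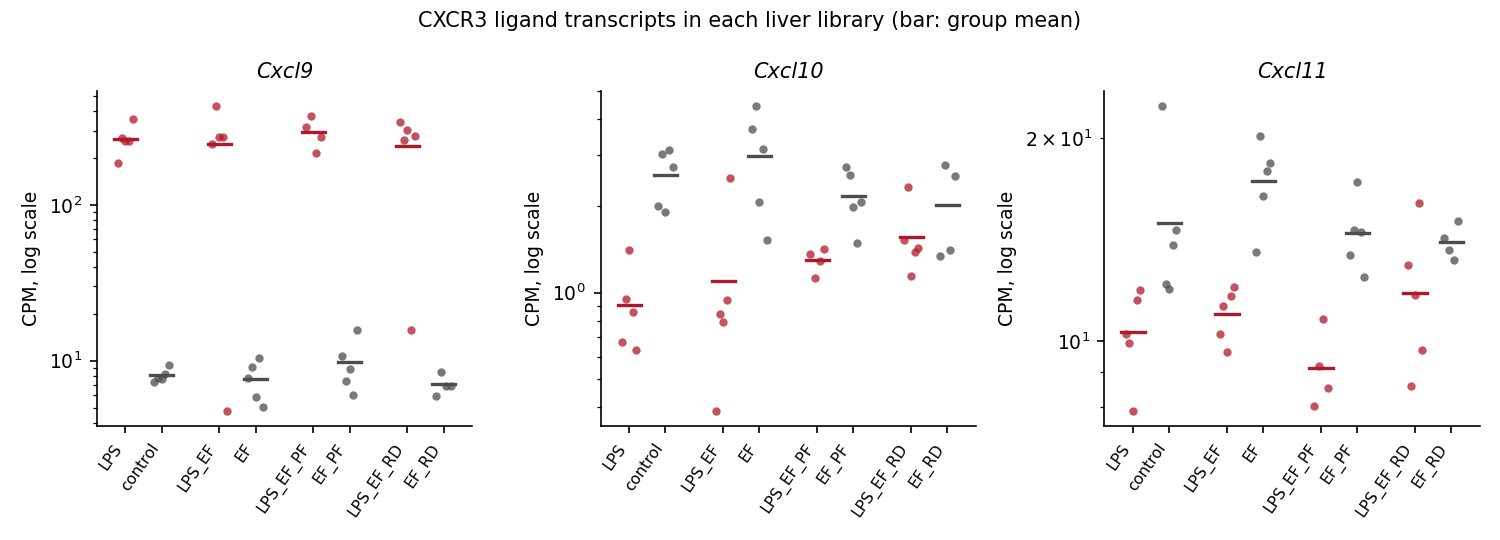
CPM (log scale) of Cxcl9, Cxcl10 and Cxcl11 in each of the 38 livers, LPS groups in red left of their references in grey, with a bar at each group mean. Cxcl9 is at 185 CPM or more in all LPS-treated livers but LPS_EF 7 (4.75) and LPS_EF_RD 6 (15.6), while the group means of Cxcl10 and Cxcl11 are lower in each LPS group than in its reference.

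Their receptor Cxcr3, found on activated T and NK cells, rose modestly in every arm. Cxcr3 stood at 1.43, 1.56, 1.48, 1.17 and 1.01 CPM in LPS livers, against 0.698, 0.843, 1.07, 1.15 and 0.695 CPM in control livers. The EF arm had Cxcr3 at 1.67, 2.18, 2.06, 1.88 and 1.53 CPM in LPS_EF livers, against 1.73, 1.55, 0.99, 0.71 and 0.93 CPM in EF livers. These groups overlapped. Together with PF, Cxcr3 was at 1.21, 1.93, 1.49 and 2.1 CPM in LPS_EF_PF livers, against 0.991, 0.837, 0.708, 0.81 and 1.36 CPM in EF_PF livers. With RD, Cxcr3 was at 1.42, 1.99, 2.24, 1.49 and 1.52 CPM in LPS_EF_RD livers, against 0.735, 0.49, 0.66 and 0.737 CPM in EF_RD livers. The EF_RD arm was the only one without overlap. Log2 fold changes of Cxcr3 were 0.57 ± 0.22 in LPS against control livers (adjusted p = 0.0417), 0.66 ± 0.22 in LPS_EF against EF livers (adjusted p = 0.0203), 0.84 ± 0.23 in LPS_EF_PF against EF_PF livers (adjusted p = 0.00493) and 1.39 ± 0.24 in LPS_EF_RD against EF_RD livers (adjusted p = 0.000217). The first call was lost without control 3, 4 or 7 or LPS 1, 2 or 3 (adjusted p up to 0.109), and without the 6 libraries that stood apart it was 0.60 (adjusted p = 0.0548). The EF arm call was lost without EF 3, EF 4 or LPS_EF 4 (up to 0.0724). T and NK cell markers moved with it: 5 of 9 tested markers were higher and 1 was lower in LPS against control livers, and 6 of 9 were higher in each other arm. Their summed level was 54.9 to 92.1 CPM in LPS livers, against 23.3 to 43.1 CPM in control livers. The sum was 53.3 to 89.9 CPM in LPS_EF livers, against 20.8 to 49.3 CPM in EF livers. It was 69.7 to 85.8 CPM in LPS_EF_PF livers, against 28.4 to 46.6 CPM in EF_PF livers, and 59.2 to 100.2 CPM in LPS_EF_RD livers, against 32.4 to 43.4 CPM in EF_RD livers. Their part in the Cxcr3 result was not tested.

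Cxcl16, a membrane-anchored ligand and lipid scavenger receptor, rose by about 2 on the log2 scale, and its receptor Cxcr6 rose too. Cxcl16 stood at 23.4, 15.3, 22.1, 13.2 and 13.3 CPM in LPS livers, against 3.17, 4.72, 6.46, 5.03 and 3.35 CPM in control livers. For Cxcl16, the EF arm gave 13, 19.2, 17.9, 16.1 and 7.94 CPM in LPS_EF livers, against 6.37, 4.68, 4.0, 2.8 and 2.11 CPM in EF livers. No liver of one group reached the other. Cxcl16 in the EF_PF arm was at 18.4, 22.4, 24.8 and 18.7 CPM in LPS_EF_PF livers, against 4.01, 4.49, 3.21, 3.24 and 3.39 CPM in EF_PF livers. In the EF_RD arm Cxcl16 was at 15.5, 24.9, 23.5, 6.37 and 20.8 CPM in LPS_EF_RD livers, against 5.58, 4.05, 4.14 and 4.09 CPM in EF_RD livers. LPS_EF 7 and LPS_EF_RD 6 were the lowest of their groups but still above every reference liver. The log2 fold changes of Cxcl16 were 1.94 ± 0.29 in LPS against control livers (adjusted p = 8.65e-06), 1.9 ± 0.29 in LPS_EF against EF livers (adjusted p = 2.46e-05), 2.52 ± 0.3 in LPS_EF_PF against EF_PF livers (adjusted p = 8.97e-07) and 2.03 ± 0.31 in LPS_EF_RD against EF_RD livers (adjusted p = 5.22e-05). Zmynd15 on the opposite strand shares 119 exonic bases with Cxcl16 and had 17.3 counts per library on average, against 291 for Cxcl16.

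Cxcr6, a receptor of tissue-resident lymphocytes, stayed below 1.1 CPM. Its values were 0.555, 0.609, 0.777, 0.584 and 0.591 CPM in LPS livers, against 0.186, 0.192, 0.605, 0.33 and 0.391 CPM in control livers. Cxcr6 in the EF arm was at 0.855, 0.996, 0.87, 0.828 and 0.674 CPM in LPS_EF livers, against 0.50, 0.422, 0.387, 0.276 and 0.0846 CPM in EF livers. Only the plain LPS arm overlapped, through control 5. Cxcr6 in the EF_PF arm was at 0.684, 0.679, 0.888 and 0.995 CPM in LPS_EF_PF livers, against 0.454, 0.616, 0.378, 0.45 and 0.518 CPM in EF_PF livers. Cxcr6 in the EF_RD arm was at 0.762, 0.652, 1.02, 0.477 and 0.551 CPM in LPS_EF_RD livers, against 0.303, 0.446, 0.308 and 0.405 CPM in EF_RD livers. Those groups were apart by small margins. Cxcr6 rose with log2 fold changes of 0.87 ± 0.29 in LPS against control livers (adjusted p = 0.0186), 1.34 ± 0.29 in LPS_EF against EF livers (adjusted p = 0.000851), 0.74 ± 0.29 in LPS_EF_PF against EF_PF livers (adjusted p = 0.0436) and 0.92 ± 0.31 in LPS_EF_RD against EF_RD livers (adjusted p = 0.029). The EF arm call held in every omission. The others were lost without control 3, control 4 or LPS 3 (up to 0.0658), in 7 of 9 omissions in the EF_PF arm (up to 0.134) and in 5 of 9 in the EF_RD arm (up to 0.0978).

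Cxcl14, a constitutively expressed epithelial chemokine, rose in all arms. Cxcl14 was at 5.35, 5.28, 4.96, 3.55 and 5.32 CPM in LPS livers, against 1.12, 1.07, 1.3, 1.48 and 1.87 CPM in control livers. Levels of Cxcl14 in the EF arm were 3.03, 3.95, 3.52, 4.74 and 1.42 CPM in LPS_EF livers, against 1.36, 0.749, 1.08, 0.907 and 1.4 CPM in EF livers. Both pairs were apart. Cxcl14 in the EF_PF arm was at 4.66, 6.95, 6.85 and 5.76 CPM in LPS_EF_PF livers, against 1.73, 1.45, 1.46, 1.08 and 0.847 CPM in EF_PF livers. For Cxcl14, the EF_RD arm gave 3.74, 16.9, 3.66, 1.27 and 7.49 CPM in LPS_EF_RD livers, against 2.25, 1.65, 1.41 and 1.47 CPM in EF_RD livers. LPS_EF_RD 2 was the highest liver of all and LPS_EF_RD 6 fell below every EF_RD liver. Cxcl14 log2 fold changes were 1.83 ± 0.39 in LPS against control livers (adjusted p = 0.00044), 1.6 ± 0.4 in LPS_EF against EF livers (adjusted p = 0.00283), 2.2 ± 0.4 in LPS_EF_PF against EF_PF livers (adjusted p = 8.58e-05) and 1.97 ± 0.41 in LPS_EF_RD against EF_RD livers (adjusted p = 0.00108), and the last was 1.24 without LPS_EF_RD 2 (adjusted p = 0.012).

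Cxcl13, which draws B cells through CXCR5, was called in 3 arms. Cxcl13 stood at 6.54, 3.22, 36.8, 3.97 and 3.71 CPM in LPS livers, against 0.698, 1.3, 2.42, 4.78 and 1.35 CPM in control livers. LPS 3 was far above all others. EF arm levels of Cxcl13 were 5.02, 9.66, 6.6, 4.25 and 1.68 CPM in LPS_EF livers, against 3.68, 1.69, 1.51, 1.93 and 0.93 CPM in EF livers. The EF_PF arm had Cxcl13 at 8.36, 5.2, 3.9 and 4.98 CPM in LPS_EF_PF livers, against 3.59, 1.14, 0.944, 1.39 and 0.565 CPM in EF_PF livers. Together with RD, Cxcl13 was at 3.81, 4.29, 16.1, 2.76 and 9.23 CPM in LPS_EF_RD livers, against 2.81, 1.02, 0.396 and 0.516 CPM in EF_RD livers. Groups were apart only in the EF_PF arm. Log2 fold changes of Cxcl13 were 2.36 ± 0.65 in LPS against control livers (adjusted p = 0.00523), 1.85 ± 0.69 in LPS_EF_PF against EF_PF livers (adjusted p = 0.0343) and 2.61 ± 0.75 in LPS_EF_RD against EF_RD livers (adjusted p = 0.0112), and 1.48 ± 0.65 in LPS_EF against EF livers (adjusted p = 0.085) was not called. Without LPS 3, the library with pancreas and muscle markers, the first was 1.04 (adjusted p = 0.159). The EF_PF arm call was lost in 6 of 9 omissions (up to 0.0981) and was 2.45 without EF_PF 1, and the EF_RD arm value was 3.49 without EF_RD 1. Without the 6 libraries that stood apart, Cxcl13 was at 1.09 (adjusted p = 0.0951) in the plain LPS arm and at 2.07 (adjusted p = 0.00236) in the EF arm. The EF arm value of Cxcl13 was also called with a replicate block (1.83, adjusted p = 0.0447) and with only the groups compared (1.49, adjusted p = 0.0443). Its receptor Cxcr5 was called in no comparison in the fit of all libraries. In LPS against control livers it was called higher with total counts (0.69, adjusted p = 0.0365), with only the groups compared (0.58, adjusted p = 0.0457) and without the 6 libraries (0.66, adjusted p = 0.0395), and those groups did not overlap. Of Cxcr5, 107 exonic bases overlap Bcl9l. B cell markers were higher for 3 of 5 genes in LPS against control, 5 in each of the EF and EF_PF arms and 2 in the EF_RD arm. Their sum was 12.6 to 20.1 CPM in LPS livers, against 5.6 to 11.3 CPM in control livers. In the EF arm it was 11.5 to 27.1 CPM in LPS_EF livers, against 4.1 to 8.91 CPM in EF livers. With PF and with RD it was 12.9 to 22 CPM in LPS_EF_PF livers, against 5.29 to 8.63 CPM in EF_PF livers, and 10.5 to 20.2 CPM in LPS_EF_RD livers, against 5.53 to 9.45 CPM in EF_RD livers. Their part in the Cxcl13 result was not tested.

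Cxcl12, a stromal ligand that retains CXCR4-bearing cells, was among the 4 most abundant ligands and was not called in any LPS comparison. Its log2 fold changes were 0.37 ± 0.22 in LPS against control livers (adjusted p = 0.199), -0.01 ± 0.22 in LPS_EF against EF livers (adjusted p = 0.984), 0.32 ± 0.23 in LPS_EF_PF against EF_PF livers (adjusted p = 0.289) and -0.01 ± 0.23 in LPS_EF_RD against EF_RD livers (adjusted p = 0.991). Its receptor Cxcr4 rose in every arm. Cxcr4 stood at 3.92, 10.3, 5.37, 4.48 and 3.5 CPM in LPS livers, against 1.63, 1.19, 2.05, 2.27 and 0.913 CPM in control livers. With EF, Cxcr4 was at 5.83, 5.1, 4.66, 4.4 and 2.58 CPM in LPS_EF livers, against 1.73, 2.15, 1.55, 1.77 and 3.09 CPM in EF livers. LPS 2 was the highest and LPS_EF 7 lay within the EF range. For Cxcr4, the EF_PF arm gave 4.42, 5.41, 5.36 and 3.8 CPM in LPS_EF_PF livers, against 0.95, 1.98, 2.08, 0.90 and 1.13 CPM in EF_PF livers. With RD, Cxcr4 was at 3.22, 8.1, 8.46, 2.92 and 4.91 CPM in LPS_EF_RD livers, against 2.51, 1.2, 1.8 and 1.95 CPM in EF_RD livers. Both of those pairs were apart. Cxcr4 log2 fold changes were 1.78 ± 0.33 in LPS against control livers (adjusted p = 0.000105), 1.13 ± 0.32 in LPS_EF against EF livers (adjusted p = 0.00813), 1.76 ± 0.34 in LPS_EF_PF against EF_PF livers (adjusted p = 0.000178) and 1.56 ± 0.35 in LPS_EF_RD against EF_RD livers (adjusted p = 0.00179), each kept in every omission.

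Ligands of CXCR2, the main neutrophil receptor, were rarely called. Cxcl1 varied by library more than by group. It stood at 5.98, 0.677, 2.11, 0.857 and 0.929 CPM in LPS livers, against 0.326, 0.92, 0.14, 0.659 and 0.522 CPM in control livers. EF arm values of Cxcl1 were 6.03, 0.996, 0.988, 18.8 and 0.786 CPM in LPS_EF livers, against 11.5, 2.58, 0.645, 0.276 and 7.23 CPM in EF livers. High and low livers occurred on each side. Together with PF, Cxcl1 was at 3.54, 0.862, 0.287 and 0.889 CPM in LPS_EF_PF livers, against 2.19, 0.616, 1.79, 0.54 and 1.55 CPM in EF_PF livers. Cxcl1 in the EF_RD arm was at 1.0, 3.26, 0.61, 2.97 and 1.47 CPM in LPS_EF_RD livers, against 62.3, 0.49, 0.44 and 1.07 CPM in EF_RD livers. EF_RD 1 alone was above 60 CPM. Cxcl1 was called lower in LPS_EF_RD against EF_RD livers at a log2 fold change of -3.11 ± 1.11 (adjusted p = 0.0394), and higher in EF_RD against control livers at 4.92 ± 1.25 (adjusted p = 0.0364). Without EF_RD 1 these were 1.45 (adjusted p = 0.348), the opposite sign, and 0.37 (adjusted p = 0.94). Both calls were also lost in other omissions, 5 of 9 and 6 of 9 in all. EF_RD 1 is the liver with skeletal muscle markers at 3365 CPM, and their part in the Cxcl1 value was not tested. The plain LPS, EF and EF_PF arms gave 2.0 ± 1.21 in LPS against control livers (adjusted p = 0.201), 0.32 ± 1.0 in LPS_EF against EF livers (adjusted p = 0.839) and 0.01 ± 1.2 in LPS_EF_PF against EF_PF livers (adjusted p = 0.995), none called.

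Cxcl2 and Cxcl6, other neutrophil attractants, had few counts. Cxcl2 was called lower in LPS_EF against EF livers, where the LPS_EF livers held 1 count in all and the EF livers 60, of which EF 2 alone held 58. The EF level was 67.7 times the LPS_EF level with a 95% exact interval of 11.7 to 2718, which covers counting error only. Without EF 2 the gene had too few counts to be tested, so the call rests on that liver. Cxcl6 was called in no comparison in the fit of all libraries. When the 6 libraries that stood apart were left out, it was called higher in the EF arm (2.73, adjusted p = 0.0481), the EF_PF arm (2.72, adjusted p = 0.013) and the EF_RD arm (2.98, adjusted p = 0.0367). With a replicate block and all libraries kept, Cxcl6 was called higher in the EF_PF arm (3.20, adjusted p = 0.0318).

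Cxcr2 itself rose in 3 arms. Cxcr2 was at 4.75, 3.45, 2.85, 2.65 and 2.87 CPM in LPS livers, against 0.233, 0.115, 0.744, 0.124 and 0.0435 CPM in control livers. For Cxcr2, the EF arm gave 4.24, 3.3, 3.0, 5.12 and 1.05 CPM in LPS_EF livers, against 4.0, 0.843, 0.904, 0.158 and 0.423 CPM in EF livers. EF 1 reached the LPS_EF range and LPS_EF 7 fell into the EF range. Cxcr2 in the EF_PF arm was at 2.17, 4.1, 4.81 and 2.1 CPM in LPS_EF_PF livers, against 0.165, 0.22, 0.189, 0.72 and 0.612 CPM in EF_PF livers. For Cxcr2, the EF_RD arm gave 2.32, 5.35, 3.62, 1.17 and 3.81 CPM in LPS_EF_RD livers, against 1.64, 0.579, 0.22 and 0.479 CPM in EF_RD livers. LPS_EF_RD 6 lay below EF_RD 1. Cxcr2 log2 fold changes were 3.73 ± 0.68 in LPS against control livers (adjusted p = 9.56e-05), 3.11 ± 0.66 in LPS_EF_PF against EF_PF livers (adjusted p = 0.000444) and 2.16 ± 0.65 in LPS_EF_RD against EF_RD livers (adjusted p = 0.0151), with 1.41 ± 0.57 in LPS_EF against EF livers (adjusted p = 0.0597) not called. The first was 4.65 without control 5, and the EF_RD arm value was 2.92 without EF_RD 1 and was not called without EF_RD 3, EF_RD 4 or LPS_EF_RD 2 (adjusted p up to 0.0611). DESeq2 called Cxcr2 higher in EF against control livers (2.33, adjusted p = 0.0267), where edgeR did not (adjusted p = 0.106). With a replicate block and all libraries kept, Cxcr2 was called higher in the EF arm (2.20, adjusted p = 0.00775). The EF arm value of Cxcr2 was 2.76 (adjusted p = 8.27e-06) without the 6 libraries that stood apart. That set leaves out EF 1 and LPS_EF 7, described above by their monocyte and neutrophil markers, so this value is not independent support. Cxcr1, the other human neutrophil receptor, had 0 counts in every library, which allows up to 3 counts over the 38 libraries together.

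Some monocyte and neutrophil markers rose in every arm, including the EF arm, where the call of Cxcr2 depended on the setting. Of 11 listed markers, 5 were tested and 4 of them (S100a8, S100a9, Csf3r and Ncf1) were higher in every arm. Their summed level was 78.3 to 114 CPM in LPS livers, against 4.03 to 19.9 CPM in control livers. In the EF arm the sum was 20.5 to 98.7 CPM in LPS_EF livers, against 3.35 to 44.7 CPM in EF livers. The EF_PF arm had 82.2 to 128 CPM in LPS_EF_PF livers, against 3.11 to 9.13 CPM in EF_PF livers. The EF_RD arm had 26.6 to 144 CPM in LPS_EF_RD livers, against 6.51 to 21.1 CPM in EF_RD livers. Mpo, Camp and Fpr1, which are also on this list, were at 0 in 11, 9 and 11 of 38 libraries. The part of these cells in the Cxcr2 result, and in the Ccr1 and Cx3cr1 results below, was not tested.

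Ccl2 and Ccl7, neighbouring monocyte attractants on chromosome 10, were scarce and rose in 3 arms. Ccl2 was at 1.35, 1.29, 2.48, 1.25 and 0.464 CPM in LPS livers, against 0.14, 0.153, 0.465, 0.206 and 0.217 CPM in control livers. Ccl2 in the EF arm was at 0.894, 0.422, 0.83, 0.865 and 0.299 CPM in LPS_EF livers, against 0.819, 0.749, 0.344, 0.513 and 0.0846 CPM in EF livers. LPS 5 lay just below control 5 and the other LPS livers above all controls, and the EF arm overlapped. For Ccl2, the EF_PF arm gave 1.85, 1.38, 0.688 and 1.14 CPM in LPS_EF_PF livers, against 0.124, 0.22, 0.236, 0.225 and 0.0471 CPM in EF_PF livers. Together with RD, Ccl2 was at 1.04, 4.53, 1.5, 0.106 and 1.01 CPM in LPS_EF_RD livers, against 0.259, 0.312, 0.176 and 0.221 CPM in EF_RD livers. LPS_EF_RD 2 was the highest of all and LPS_EF_RD 6 the lowest of its arm. Ccl2 log2 fold changes were 2.52 ± 0.59 in LPS against control livers (adjusted p = 0.00115), 2.85 ± 0.63 in LPS_EF_PF against EF_PF livers (adjusted p = 0.000717) and 2.76 ± 0.63 in LPS_EF_RD against EF_RD livers (adjusted p = 0.00227), and 0.4 ± 0.56 in LPS_EF against EF livers (adjusted p = 0.622) was not called. Without LPS_EF_RD 2 the EF_RD arm value was 1.91 (adjusted p = 0.0231).

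Ccl7 stayed under 2 CPM. Its values were 0.396, 0.372, 1.52, 0.273 and 0.0422 CPM in LPS livers, against 0.0931, 0.0767, 0.186, 0.124 and 0 CPM in control livers. Levels of Ccl7 in the EF arm were 0.156, 0.307, 0.435, 0.376 and 0.0374 CPM in LPS_EF livers, against 0.409, 0.0937, 0.172, 0.118 and 0.0846 CPM in EF livers. LPS 3 was the highest, and both arms overlapped. Together with PF, Ccl7 was at 0.804, 0.574, 0.401 and 0.675 CPM in LPS_EF_PF livers, against 0.0413, 0, 0.0472, 0 and 0.0471 CPM in EF_PF livers. Ccl7 in the EF_RD arm was at 0.416, 1.85, 0.772, 0.053 and 0.643 CPM in LPS_EF_RD livers, against 0.259, 0, 0 and 0 CPM in EF_RD livers. EF_RD 2, 3 and 4 had no count at all. Ccl7 log2 fold changes were 2.41 ± 0.81 in LPS against control livers (adjusted p = 0.019), 4.27 ± 1.0 in LPS_EF_PF against EF_PF livers (adjusted p = 0.00125) and 3.49 ± 0.91 in LPS_EF_RD against EF_RD livers (adjusted p = 0.00609), and 0.57 ± 0.79 in LPS_EF against EF livers (adjusted p = 0.62) was not called. The EF_PF arm rests on 75 counts in LPS_EF_PF livers against 3 in EF_PF livers, a ratio of 22.1 (95% exact interval 7.28 to 110). Without LPS 3 the first was 1.48 (adjusted p = 0.169), without control 7 it was 2.10 (adjusted p = 0.0522), and without EF_RD 1 the remaining EF_RD livers were all at 0.

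Ccl9 and Ccl6 are rodent CC ligands that bind CCR1 in mice. Ccl9 stood at 1043, 927, 816, 1122 and 1055 CPM in LPS livers, against 494, 372, 308, 424 and 379 CPM in control livers. With EF, Ccl9 was at 1095, 850.4, 732, 725 and 213 CPM in LPS_EF livers, against 419, 482, 306, 385 and 262 CPM in EF livers. Every LPS liver was above every control liver, and LPS_EF 7 was below all EF livers. Ccl9 in the EF_PF arm was at 915, 831, 919 and 696 CPM in LPS_EF_PF livers, against 284, 306, 313, 278 and 311 CPM in EF_PF livers. For Ccl9, the EF_RD arm gave 948, 694, 1108, 381 and 981 CPM in LPS_EF_RD livers, against 315, 306, 305 and 284 CPM in EF_RD livers. Both pairs were apart. Ccl9 log2 fold changes were 1.33 ± 0.25 in LPS against control livers (adjusted p = 0.000145), 0.96 ± 0.25 in LPS_EF against EF livers (adjusted p = 0.00413), 1.49 ± 0.26 in LPS_EF_PF against EF_PF livers (adjusted p = 5.48e-05) and 1.44 ± 0.27 in LPS_EF_RD against EF_RD livers (adjusted p = 0.000419), each kept in every omission. With only the groups compared in the fit, the EF arm call was lost (adjusted p = 0.0758).

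Ccl6 rose less. It was at 54, 48.9, 62.5, 46.1 and 57.1 CPM in LPS livers, against 17.3, 33.2, 32.4, 41.8 and 27.6 CPM in control livers. For Ccl6, the EF arm gave 32.3, 75.5, 86.9, 48.8 and 50.0 CPM in LPS_EF livers, against 52.1, 59.9, 35.5, 13.6 and 13.5 CPM in EF livers. The EF livers ran across a wide range and overlapped LPS_EF livers. Ccl6 in the EF_PF arm was at 59.7, 76, 67.8 and 71 CPM in LPS_EF_PF livers, against 49.4, 42.4, 24.3, 20.7 and 18.1 CPM in EF_PF livers. Together with RD, Ccl6 was at 75.9, 67.8, 74.8, 42.5 and 52.6 CPM in LPS_EF_RD livers, against 24.6, 41.3, 39.5 and 39.3 CPM in EF_RD livers. Groups were apart in the plain LPS, EF_PF and EF_RD arms. Ccl6 was called higher at 0.82 ± 0.32 in LPS against control livers (adjusted p = 0.0462) and 1.15 ± 0.34 in LPS_EF_PF against EF_PF livers (adjusted p = 0.00857) and not called at 0.75 ± 0.32 in LPS_EF against EF livers (adjusted p = 0.0786) and 0.79 ± 0.35 in LPS_EF_RD against EF_RD livers (adjusted p = 0.092). The first call was lost in 8 of 10 omissions (adjusted p up to 0.129), all except those of control 6 and LPS 4. Without the 6 libraries that stood apart, Ccl6 was at 0.78 (adjusted p = 0.0948) in the plain LPS arm and at 0.99 (adjusted p = 0.0313) in the EF arm. Ccl6 was also called higher in the EF arm with a replicate block (1.08, adjusted p = 0.0237). In the EF_RD arm it was called higher with only the groups compared in the fit (0.80, adjusted p = 0.035).

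Ccl3 and Ccl4, inflammatory CC ligands of monocytes and T cells, differed in their calls. Ccl3 was at 0.475, 0.677, 0.777, 0.506 and 0.675 CPM in LPS livers, against 0.326, 0.268, 0.605, 0.33 and 0.435 CPM in control livers. Ccl3 in the EF arm was at 0.156, 1.15, 0.949, 0.527 and 0.674 CPM in LPS_EF livers, against 0.682, 0.796, 0.258, 0.158 and 0.211 CPM in EF livers. These groups overlapped. For Ccl3, the EF_PF arm gave 1.01, 1.44, 0.86 and 1.1 CPM in LPS_EF_PF livers, against 0.702, 0.396, 0.33, 0.135 and 0.188 CPM in EF_PF livers. Ccl3 in the EF_RD arm was at 0.658, 2.5, 0.691, 0.53 and 0.367 CPM in LPS_EF_RD livers, against 0.173, 0.134, 0.396 and 0.516 CPM in EF_RD livers. The EF_PF arm was apart, and LPS_EF_RD 2 was far above its group. Ccl3 was called at 1.63 ± 0.51 in LPS_EF_PF against EF_PF livers (adjusted p = 0.0131) and 1.63 ± 0.54 in LPS_EF_RD against EF_RD livers (adjusted p = 0.0281) and not at 0.67 ± 0.5 in LPS against control livers (adjusted p = 0.313) and 0.73 ± 0.5 in LPS_EF against EF livers (adjusted p = 0.286). Without LPS_EF_RD 2 the EF_RD arm value was 0.85 (adjusted p = 0.259), and without EF_RD 1 or EF_RD 2 it was not called either. Ccl4 shares 84 exonic bases with Ccl3 on the opposite strand and was called in no comparison, as was Ccl5.

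Ccr1, a receptor of monocytes and neutrophils, was called in the plain LPS and EF_PF arms. Ccr1 was at 1.62, 1.69, 1.37, 1.21 and 1.35 CPM in LPS livers, against 0.186, 0.115, 0.558, 0.206 and 0.304 CPM in control livers. Levels of Ccr1 in the EF arm were 1.05, 1.26, 1.3, 1.73 and 0.449 CPM in LPS_EF livers, against 1.82, 0.749, 0.344, 0.276 and 0.296 CPM in EF livers. LPS livers were all above control livers, and EF 1 reached the LPS_EF range. Together with PF, Ccr1 was at 1.25, 1.44, 1.89 and 1.14 CPM in LPS_EF_PF livers, against 0.496, 0.0881, 0.283, 0.36 and 0.329 CPM in EF_PF livers. For Ccr1, the EF_RD arm gave 0.762, 2.33, 1.67, 0.69 and 1.56 CPM in LPS_EF_RD livers, against 1.25, 0.579, 0.66 and 0.221 CPM in EF_RD livers. The EF_PF arm was apart and the EF_RD arm was not. Ccr1 rose at 2.4 ± 0.5 in LPS against control livers (adjusted p = 0.00036) and 2.18 ± 0.5 in LPS_EF_PF against EF_PF livers (adjusted p = 0.00107), and 0.74 ± 0.45 in LPS_EF against EF livers (adjusted p = 0.225) and 1.06 ± 0.48 in LPS_EF_RD against EF_RD livers (adjusted p = 0.108) were not called. The EF arm value of Ccr1 was 1.69 (adjusted p = 0.000631) without the 6 libraries that stood apart, and Ccr1 was then also called in the EF_RD arm.

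Cx3cr1, the fractalkine receptor of patrolling monocytes and tissue macrophages, rose in every arm. Cx3cr1 stood at 1.39, 2.91, 2.85, 1.48 and 1.6 CPM in LPS livers, against 0.0466, 0.268, 0.977, 0.206 and 0.13 CPM in control livers. With EF, Cx3cr1 was at 2.37, 2.64, 2.21, 1.99 and 0.374 CPM in LPS_EF livers, against 0.455, 0.281, 0.258, 0.158 and 0.127 CPM in EF livers. Control 5 was high among controls, and LPS_EF 7 lay within the EF range. Cx3cr1 in the EF_PF arm was at 2.17, 2.4, 3.47 and 2.42 CPM in LPS_EF_PF livers, against 0.289, 0.176, 0.142, 0.18 and 0.424 CPM in EF_PF livers. Together with RD, Cx3cr1 was at 1.45, 3.77, 3.17, 0.584 and 2.11 CPM in LPS_EF_RD livers, against 0.13, 0.178, 0.396 and 0.258 CPM in EF_RD livers. Those pairs were apart. Log2 fold changes of Cx3cr1 were 2.65 ± 0.52 in LPS against control livers (adjusted p = 0.000185), 2.9 ± 0.53 in LPS_EF against EF livers (adjusted p = 0.000179), 3.41 ± 0.55 in LPS_EF_PF against EF_PF livers (adjusted p = 2.04e-05) and 3.19 ± 0.58 in LPS_EF_RD against EF_RD livers (adjusted p = 0.00032), and the first was 3.58 without control 5 (all 4 calls were kept in every omission). Its ligand Cx3cl1 was called in no comparison. Kupffer cell markers were higher for 5 of 8 genes in LPS against control livers, 4 in the EF arm and 6 in each of the EF_PF and EF_RD arms. Their summed level was 926 to 1078 CPM in LPS livers, against 517 to 858 CPM in control livers. The EF arm had 788 to 1241 CPM in LPS_EF livers, against 353 to 919 CPM in EF livers. The EF_PF and EF_RD arms had 1020.5 to 1269.8 CPM in LPS_EF_PF livers, against 479 to 847 CPM in EF_PF livers, and 882 to 1511 CPM in LPS_EF_RD livers, against 519 to 688 CPM in EF_RD livers. Clec4f, the most selective of them, was called in no arm. Their part in the Ccl9, Cxcl16 and Cx3cr1 results was not tested.

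**Figure D4:**
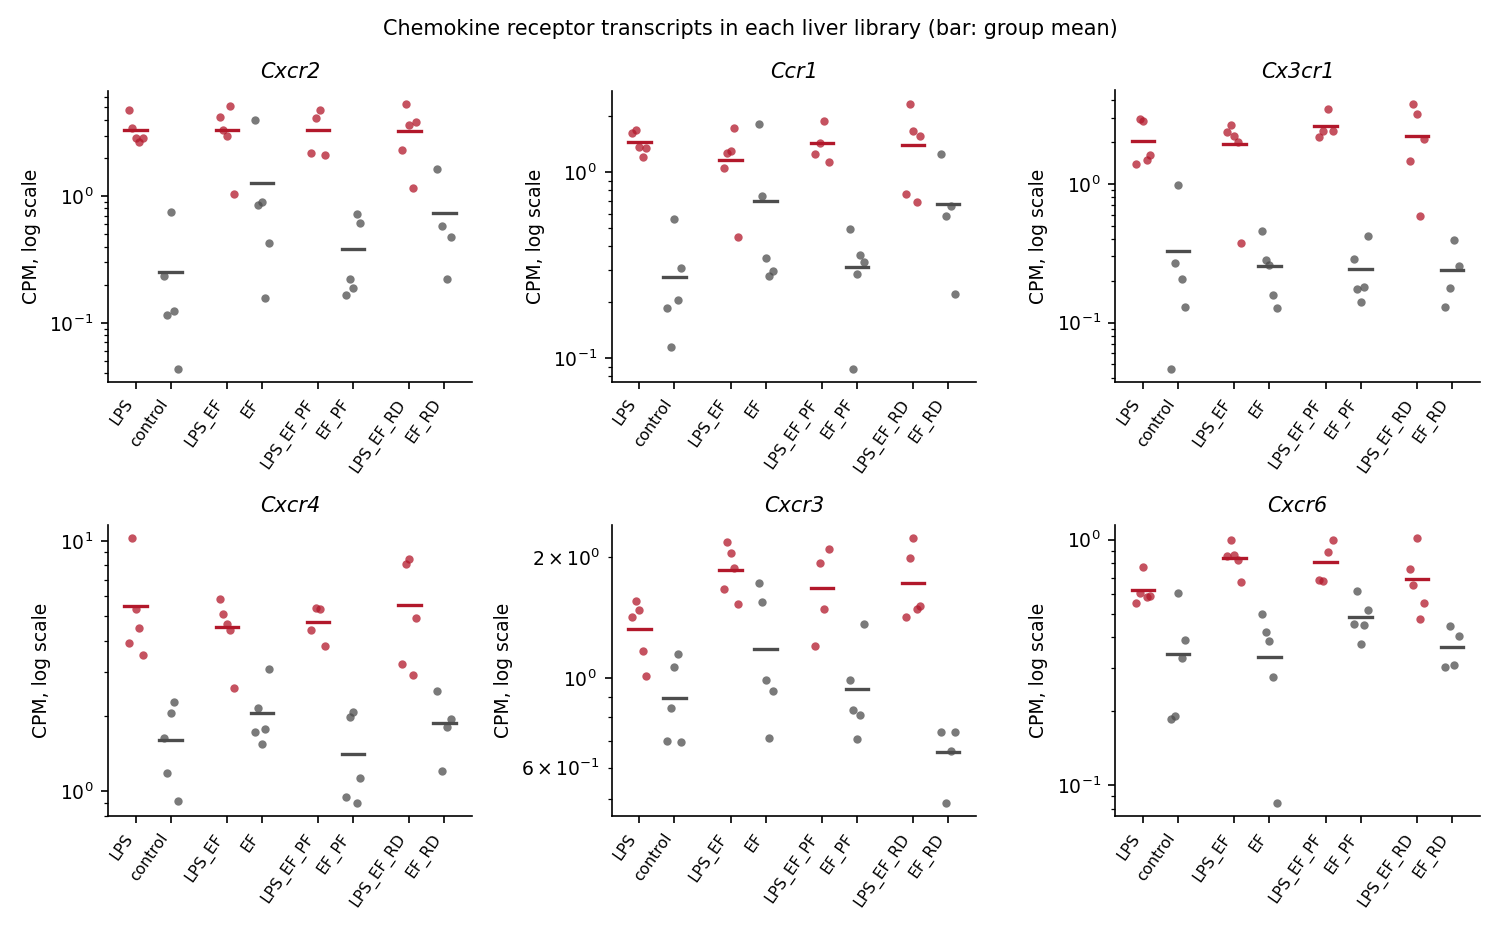
CPM (log scale) of 6 receptors in each of the 38 livers, LPS groups in red left of their references in grey, with a bar at each group mean. Cxcr2 and Ccr1 of EF 1 lie among LPS-treated livers, and LPS_EF 7 is the lowest LPS_EF liver for Cxcr2, Ccr1, Cx3cr1 and Cxcr4.

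Ccl19 guides dendritic cells and naive T cells through CCR7 and rose by about 3 on the log2 scale in every arm. Ccl19 stood at 6.85, 6.91, 12, 4.67 and 6.37 CPM in LPS livers, against 0.745, 0.882, 1.21, 1.07 and 0.652 CPM in control livers. For Ccl19, the EF arm gave 8.79, 12, 8.38, 8.46 and 1.95 CPM in LPS_EF livers, against 2.18, 0.89, 0.775, 0.749 and 0.761 CPM in EF livers. Only LPS_EF 7 entered the EF range. For Ccl19, the EF_PF arm gave 7.92, 9.56, 7.74 and 9.81 CPM in LPS_EF_PF livers, against 0.413, 0.572, 0.613, 0.72 and 1.36 CPM in EF_PF livers. Ccl19 in the EF_RD arm was at 7.0, 9.09, 7.03, 2.17 and 9.69 CPM in LPS_EF_RD livers, against 0.778, 0.713, 0.748 and 0.331 CPM in EF_RD livers. Both pairs were apart, and LPS_EF_RD 6 was the lowest of its group. The log2 fold changes of Ccl19 were 3.01 ± 0.4 in LPS against control livers (adjusted p = 2.64e-06), 2.89 ± 0.39 in LPS_EF against EF livers (adjusted p = 8.32e-06), 3.57 ± 0.42 in LPS_EF_PF against EF_PF livers (adjusted p = 7.13e-07) and 3.45 ± 0.45 in LPS_EF_RD against EF_RD livers (adjusted p = 1.20e-05), each kept in every omission. Its promoter entry holds GAAAGTGAAA from 51 to 42 bases before the start, a match to the ISRE core.

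Ccl21, the other CCR7 ligand, lies beside Ccl19 on chromosome 5 and was called in the EF_PF arm. There it ranged 6.76 to 17.2 CPM in LPS_EF_PF livers, against 1.98 to 4.19 CPM in EF_PF livers, with a log2 fold change of 1.79 ± 0.47 (adjusted p = 0.0032). In the other arms its values were 0.38 ± 0.44 in LPS against control livers (adjusted p = 0.533), 0.34 ± 0.43 in LPS_EF against EF livers (adjusted p = 0.595) and 0.23 ± 0.46 in LPS_EF_RD against EF_RD livers (adjusted p = 0.753), not called. The EF arm value was 1.15 (adjusted p = 0.0147) without the 6 libraries that stood apart. The difference between arms was not called as an interaction. Of 6 stellate cell markers, 2, 2, 3 and 1 were higher in the plain LPS, EF, EF_PF and EF_RD arms. In each of the plain LPS and EF_RD arms 1 was lower. Of 6 liver endothelium markers, 2, 5, 3 and 1 were higher in the same arms and none was lower. The summed stellate markers were 678 to 1017 CPM in LPS_EF_PF livers, against 382 to 544 CPM in EF_PF livers. These stellate sums were 671 to 1037 CPM in LPS livers, against 472 to 709 CPM in control livers. They were 629 to 976 CPM in LPS_EF livers, against 454 to 640 CPM in EF livers. The EF_RD arm had 595 to 930 CPM in LPS_EF_RD livers, against 524 to 956 CPM in EF_RD livers. The summed endothelium markers were 272 to 321 CPM in LPS_EF_PF livers, against 142 to 226 CPM in EF_PF livers. In the EF arm they were 261 to 336 CPM in LPS_EF livers, against 93.8 to 233 CPM in EF livers. In the plain LPS arm they were 184 to 303 CPM in LPS livers, against 92.8 to 254 CPM in control livers. In the EF_RD arm they were 191 to 340 CPM in LPS_EF_RD livers, against 229 to 257 CPM in EF_RD livers. Their part in the Ccl21 result was not tested.

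Ccr7 was below 1.3 CPM in all livers. Its values were 0.555, 0.643, 1.11, 0.584 and 0.887 CPM in LPS livers, against 0.605, 0.728, 1.02, 0.948 and 0.739 CPM in control livers. Ccr7 in the EF arm was at 0.622, 0.728, 0.87, 0.865 and 1.16 CPM in LPS_EF livers, against 0.318, 0.656, 0.344, 0.355 and 0.423 CPM in EF livers. The plain LPS groups overlapped throughout, and LPS_EF 3 lay within the EF range. Together with PF, Ccr7 was at 0.684, 1.18, 1.2 and 0.853 CPM in LPS_EF_PF livers, against 0.496, 0.44, 0.0944, 0.405 and 0.329 CPM in EF_PF livers. For Ccr7, the EF_RD arm gave 0.485, 0.926, 0.691, 0.849 and 0.827 CPM in LPS_EF_RD livers, against 0.432, 0.49, 0.352 and 0.442 CPM in EF_RD livers. The EF_PF arm was apart, and LPS_EF_RD 1 lay within the EF_RD range. Ccr7 was called higher at 1.02 ± 0.28 in LPS_EF against EF livers (adjusted p = 0.0062), 1.46 ± 0.29 in LPS_EF_PF against EF_PF livers (adjusted p = 0.000224) and 0.8 ± 0.3 in LPS_EF_RD against EF_RD livers (adjusted p = 0.0482) and not called at -0.1 ± 0.26 in LPS against control livers (adjusted p = 0.8). The EF_RD arm call was lost in 8 of 9 omissions (adjusted p up to 0.129). Ccr7 was also lower in EF_PF against control livers at -1.17 ± 0.29 (adjusted p = 0.0428), a call lost in 8 of 10 omissions (up to 0.101). Without the 6 libraries that stood apart these were 0.76 (adjusted p = 0.0746) and -1.08 (adjusted p = 0.0605).

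Ccr6, the CCL20 receptor of B cells and type 17 T cells, was called in 3 arms. Ccr6 was at 0.594, 0.44, 0.629, 0.467 and 0.549 CPM in LPS livers, against 0.0466, 0.0767, 0.744, 0.165 and 0.0869 CPM in control livers. Levels of Ccr6 in the EF arm were 0.894, 0.192, 0.474, 0.564 and 0.449 CPM in LPS_EF livers, against 0.364, 0.468, 0.215, 0.237 and 0.296 CPM in EF livers. Control 5 was above every LPS liver. Ccr6 in the EF_PF arm was at 0.483, 0.731, 0.745 and 0.604 CPM in LPS_EF_PF livers, against 0.372, 0.22, 0.142, 0.36 and 0.282 CPM in EF_PF livers. Together with RD, Ccr6 was at 0.658, 0.48, 0.854, 0.584 and 0.505 CPM in LPS_EF_RD livers, against 0.216, 0.0891, 0.132 and 0.295 CPM in EF_RD livers. Both pairs were apart. Ccr6 rose at 1.27 ± 0.44 in LPS against control livers (adjusted p = 0.024), 1.21 ± 0.44 in LPS_EF_PF against EF_PF livers (adjusted p = 0.0313) and 1.7 ± 0.48 in LPS_EF_RD against EF_RD livers (adjusted p = 0.0108), and 0.7 ± 0.43 in LPS_EF against EF livers (adjusted p = 0.222) was not called. The first was 2.44 without control 5 and was lost without control 3, 4, 6 or 7 (adjusted p up to 0.0774). The EF_PF arm call was lost in 5 of 9 omissions (up to 0.0814).

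Xcr1 marks cross-presenting dendritic cells and was called in 3 arms. Xcr1 stood at 2.89, 5.08, 3.85, 2.84 and 2.62 CPM in LPS livers, against 1.58, 2.15, 1.86, 2.02 and 1.04 CPM in control livers. With EF, Xcr1 was at 2.22, 4.94, 2.85, 2.22 and 1.57 CPM in LPS_EF livers, against 4.09, 2.15, 2.41, 1.3 and 1.31 CPM in EF livers. LPS livers lay above all control livers, and EF 1 was high among EF livers. For Xcr1, the EF_PF arm gave 3.22, 3.34, 3.01 and 2.52 CPM in LPS_EF_PF livers, against 1.61, 2.42, 1.42, 1.26 and 1.88 CPM in EF_PF livers. Xcr1 in the EF_RD arm was at 3.12, 3.12, 2.93, 1.75 and 2.57 CPM in LPS_EF_RD livers, against 1.25, 1.29, 1.01 and 1.22 CPM in EF_RD livers. Both pairs were apart. Xcr1 rose at 1.0 ± 0.28 in LPS against control livers (adjusted p = 0.00536), 0.81 ± 0.29 in LPS_EF_PF against EF_PF livers (adjusted p = 0.0279) and 1.18 ± 0.31 in LPS_EF_RD against EF_RD livers (adjusted p = 0.00593), and 0.3 ± 0.27 in LPS_EF against EF livers (adjusted p = 0.449) was not called. The EF_PF arm call was lost in 5 of 9 omissions (adjusted p up to 0.073). The EF arm value of Xcr1 was 0.77 (adjusted p = 0.0224) without the 6 libraries that stood apart and 0.66 (adjusted p = 0.0406) with a replicate block. Its ligand Xcl1 was called in no comparison. Of 4 tested dendritic cell markers, 1 (Itgax) was higher in each of the plain LPS, EF and EF_PF arms and 2 (Itgax and Flt3) in the EF_RD arm. Clec9a, shared with few other cells, was called in no arm. Their sum was 11.9 to 19.6 CPM in LPS livers, against 5.82 to 11.3 CPM in control livers, and 9.44 to 17.1 CPM in LPS_EF_RD livers, against 6.92 to 9.47 CPM in EF_RD livers. It was 9.73 to 17.6 CPM in LPS_EF livers, against 4.22 to 17.6 CPM in EF livers, and 13.1 to 16.6 CPM in LPS_EF_PF livers, against 6.3 to 10.1 CPM in EF_PF livers. Their part in the Xcr1 result was not tested.

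Ccl24, a CCR3 ligand that attracts eosinophils, was the member that fell in all 4 comparisons. Ccl24 stood at 1.19, 0.812, 2.59, 1.79 and 2.45 CPM in LPS livers, against 3.63, 6.17, 5.4, 6.18 and 3.39 CPM in control livers. For Ccl24, the EF arm gave 2.22, 2.03, 4.15, 1.62 and 3.26 CPM in LPS_EF livers, against 4.82, 7.59, 4.0, 4.73 and 2.75 CPM in EF livers. LPS livers were all below control livers, while LPS_EF 5 and LPS_EF 7 reached the EF range. Together with PF, Ccl24 was at 1.33, 2.59, 2.15 and 2.74 CPM in LPS_EF_PF livers, against 5.54, 5.28, 5.66, 4.5 and 4.14 CPM in EF_PF livers. For Ccl24, the EF_RD arm gave 2.04, 1.65, 2.03, 4.93 and 2.02 CPM in LPS_EF_RD livers, against 5.79, 3.92, 4.45 and 4.71 CPM in EF_RD livers. LPS_EF_RD 6 alone reached the EF_RD range. Ccl24 log2 fold changes were -1.49 ± 0.31 in LPS against control livers (adjusted p = 0.000366), -0.85 ± 0.3 in LPS_EF against EF livers (adjusted p = 0.0327), -1.18 ± 0.32 in LPS_EF_PF against EF_PF livers (adjusted p = 0.00472) and -0.91 ± 0.32 in LPS_EF_RD against EF_RD livers (adjusted p = 0.0356). The EF arm call was lost without EF 2, EF 4 or LPS_EF 3, 4 or 6 (adjusted p up to 0.139), and the EF_RD arm call in 7 of 9 omissions (up to 0.095). Among the other CCR3 ligands, Ccl26 was called nowhere, and Ccl11 was called higher in LPS_EF_PF livers, with 58 counts against 0 in EF_PF livers. The LPS_EF_PF livers ran from 0.0261 to 1.17 CPM, and LPS_EF_PF 4 held 41 of the counts. That is at least 17.1-fold higher against a floor of 3 counts over the group, with an adjusted p of 0.0495 that was lost in 7 of 9 omissions (up to 0.168). The fitted log2 fold change, which is no bound, was 6.54, and 5.37 without LPS_EF_PF 4. Ccl11 was also called in the EF_RD arm without the 6 libraries that stood apart (adjusted p = 0.0196).

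The extracts without LPS called few members. EF against control livers gave 1 called member, higher, beside 0.92% of all genes (0.656% higher and 0.264% lower). EF_PF against control livers gave 1 higher and 1 lower, beside 0.622% (0.446% and 0.176%). EF_RD against control livers gave 2 higher, beside 1.52% (0.859% and 0.663%). These comparisons share the control livers. Ackr2, an atypical receptor that scavenges inflammatory CC chemokines, was called higher in all 3, and Ccr7 and Cxcl1 (both above) were the others.

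Ackr2 stood at 5.23, 3.7, 5.68, 5.05 and 5.07 CPM in EF livers, at 5.91, 6.52, 5.99, 8.28 and 6.96 CPM in EF_PF livers and at 8.73, 6.91, 5.81 and 7.33 CPM in EF_RD livers, against 2.05, 2.42, 2.88, 3.09 and 1.56 CPM in control livers. Every extract-treated liver was above every control liver. Log2 fold changes of Ackr2 were 1.04 ± 0.2 in EF against control livers (adjusted p = 0.0062), 1.48 ± 0.2 in EF_PF against control livers (adjusted p = 8.34e-05) and 1.58 ± 0.21 in EF_RD against control livers (adjusted p = 6.82e-05), each kept in every omission, and the first was not called with only EF and control livers in the fit (adjusted p = 0.0745). With LPS, Ackr2 was at 5.52, 4.83, 9.45, 5.79 and 4.19 CPM in LPS_EF livers, at 4.62, 4.83, 4.87 and 3.27 CPM in LPS_EF_PF livers and at 5.44, 4.87, 2.97, 3.24 and 4.41 CPM in LPS_EF_RD livers, against 2.65, 1.66, 2.81, 2.61 and 2.62 CPM in LPS livers. Here too no extract-treated liver fell to the level of the LPS livers. Ackr2 was the one member called between livers with LPS, at 1.27 ± 0.2 in LPS_EF against LPS livers (adjusted p = 0.00292), beside 0.108% of all genes (0.0744% higher and 0.0338% lower). With only LPS_EF and LPS livers in the fit it was not called (adjusted p = 0.067). The values of 0.84 ± 0.21 in LPS_EF_PF against LPS livers (adjusted p = 0.226) and 0.77 ± 0.2 in LPS_EF_RD against LPS livers (adjusted p = 0.339) were not called.

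LPS lowered Ackr2 in the EF_PF and EF_RD arms, at -0.61 ± 0.21 in LPS_EF_PF against EF_PF livers (adjusted p = 0.0213) and -0.78 ± 0.21 in LPS_EF_RD against EF_RD livers (adjusted p = 0.00683), and gave uncalled values of 0.04 ± 0.21 in LPS against control livers (adjusted p = 0.903) and 0.27 ± 0.2 in LPS_EF against EF livers (adjusted p = 0.323). The EF_PF arm call was lost without EF_PF 5 or LPS_EF_PF 6 (adjusted p up to 0.0887). The difference between arms was not called as an interaction.

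Cyp8b1, the sterol 12-alpha-hydroxylase of bile acid synthesis, lies next to Ackr2 on chromosome 8 and moved in the same direction with the extracts. In rn6, Ackr2 occupies 130526521-130543566 on the plus strand and Cyp8b1 occupies 130548418-130550388 on the minus strand, so that their ends face each other without overlap. Cyp8b1 was at 955, 933, 1587, 1378 and 1632 CPM in EF livers, at 1180.0, 1296, 1455, 1583 and 1180.2 CPM in EF_PF livers and at 1261, 1678, 1174 and 1702 CPM in EF_RD livers, against 460.2, 427, 369.8, 606 and 303 CPM in control livers. Its log2 fold changes were 1.58 ± 0.21 in EF against control livers (adjusted p = 9.37e-05), 1.63 ± 0.21 in EF_PF against control livers (adjusted p = 3.49e-05) and 1.75 ± 0.22 in EF_RD against control livers (adjusted p = 2.94e-05). Among extract-treated livers with and without LPS, Cyp8b1 gave -0.36 ± 0.21 in LPS_EF against EF livers (adjusted p = 0.194), -0.76 ± 0.22 in LPS_EF_PF against EF_PF livers (adjusted p = 0.00772) and -0.94 ± 0.22 in LPS_EF_RD against EF_RD livers (adjusted p = 0.00248). Without an extract, Cyp8b1 was lower with LPS, at -0.52 ± 0.21 in LPS against control livers (adjusted p = 0.049), where Ackr2 was not called. Cyp8b1 was called at 1.74 ± 0.21 in LPS_EF against LPS livers (adjusted p = 2.70e-05). Unlike Ackr2, it was also called at 1.39 ± 0.22 in LPS_EF_PF against LPS livers (adjusted p = 0.00227) and 1.32 ± 0.21 in LPS_EF_RD against LPS livers (adjusted p = 0.00602). Each library held 0.311 to 1.29 Ackr2 counts per 100 Cyp8b1 counts. Because counting ignored strand, the part of Cyp8b1 reads in the Ackr2 values was not tested.

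**Figure D5:**
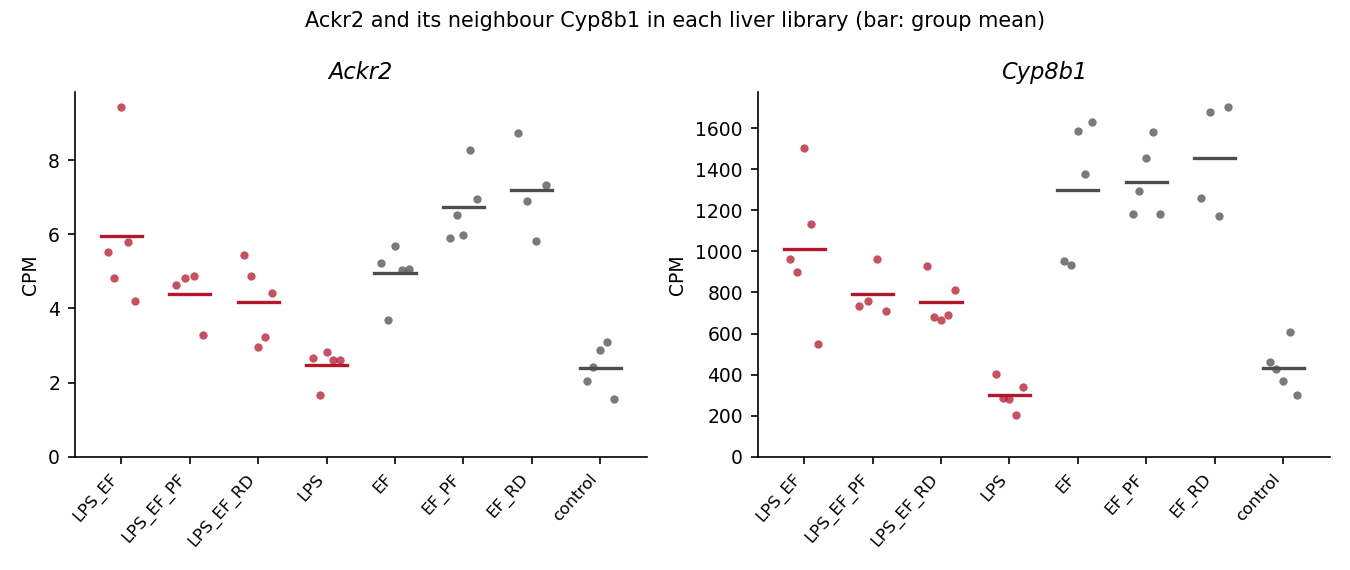
CPM (linear scale from 0) of Ackr2 and Cyp8b1 in each of the 38 livers, LPS-treated groups in red and the others in grey, with a bar at each group mean. Both genes are higher in every extract group than in the LPS or control group beside it, with Ackr2 group means of 4.18 CPM or more against 2.40 to 2.47 CPM.

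No member was called between LPS livers with EF_PF or EF_RD and LPS livers alone (beside 0.0406% and 0.0135% of all genes, of which 0.0271% and 0.0135% higher), nor in EF_PF or EF_RD against EF livers (0.162% and 0.724%, of which 0.0676% and 0.487% higher), nor in LPS_EF_PF or LPS_EF_RD against LPS_EF livers (0.00676% and 0%). At an unadjusted p under 0.05 edgeR had 3, 4, 9, 5, 2 and 5 members in these comparisons, and DESeq2 called 0 in each. The interactions of LPS with EF, EF_PF and EF_RD, which ask whether the LPS response of a gene changed with an extract, also called no member, beside 0.108%, 0.0812% and 0.128% of all genes. They had 5, 4 and 9 members at an unadjusted p under 0.05, and DESeq2 again called 0. Groups of 4 or 5 livers limit what these comparisons can detect.

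Of the remaining atypical receptors, Ackr3, which binds CXCL12 and CXCL11, was called in the EF_PF arm, with 3.47 to 9.81 CPM in LPS_EF_PF livers, against 1.46 to 2.2 CPM in EF_PF livers (log2 fold change 1.72 ± 0.48, adjusted p = 0.00539). Its other LPS comparisons gave 0.64 ± 0.45 in LPS against control livers (adjusted p = 0.281), 0.73 ± 0.46 in LPS_EF against EF livers (adjusted p = 0.24) and -0.09 ± 0.47 in LPS_EF_RD against EF_RD livers (adjusted p = 0.906), not called. Leaving out the 6 libraries that stood apart, Ackr3 was called in the EF arm (1.30, adjusted p = 0.00146) and the EF_RD arm (0.85, adjusted p = 0.0446). Ackr1 and Ackr4, a scavenger of CCL19 and CCL21, were called in none. In the fit of all libraries, tested members called in no comparison included Ccl4, Ccl5, Ccl22, Ccl26, Ccl27, Cx3cl1, Cxcl6, Cxcl12, Xcl1, Ccr3, Ccr9, Cxcr5, Ackr1 and Ackr4. Of these, Ccl22 was called lower in the EF arm without the 6 libraries (-2.50, adjusted p = 0.025), and Cxcl6 and Cxcr5 as given above.

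The 13 members not tested were read rarely over all 38 libraries. Cxcr1 had 0 counts. Ccl1 had 11, Ccl20 had 15, Cxcl3 had 23, Ccr1l1 had 28, Cxcl17 had 31, Ccl28 had 38, Ccl17 had 39 and Ccr8 had 40 counts. Ccl12 had 53, Ccr4 had 61, Ccr10 had 95 and Ccl25 had 114 counts. Ccl20, the ligand of Ccr6, and Ccl25, the ligand of Ccr9, are thus too scarce to compare here.

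Most listed genes that act downstream of chemokine receptors were called higher with LPS. Of 30 genes of chemokine receptor signalling, 25 were higher in LPS against control livers, 23 in the EF arm, 25 in the EF_PF arm and 26 in the EF_RD arm, and none was lower. The list's median log2 fold change in the plain LPS arm was 1.20, beside 0.00 for all genes. Rac2, a haematopoietic small GTPase of the migrating cell, was at 1.98 (adjusted p = 6.61e-06) and the phosphoinositide 3-kinase catalytic subunit Pik3cg at 1.44 (adjusted p = 0.000399). Gnai2, the Gi subunit of leukocyte receptors, was at 0.99 (adjusted p = 1.57e-06), while its widely expressed relative Gnai3 was at -0.04 (adjusted p = 0.748).

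Beside this list and those of adhesion and cytokine genes, the share of all genes called higher was 18.6%, 14.6%, 19.2% and 12.8% in the plain LPS, EF, EF_PF and EF_RD arms. Of 17 tested genes of leukocyte adhesion, 15, 12, 14 and 13 were higher in the plain LPS, EF, EF_PF and EF_RD arms and none was lower, with a median of 1.12 in the plain LPS arm. Itgam, the alpha chain of Mac-1, was at 2.96 (adjusted p = 6.35e-05) and Icam1, its endothelial ligand, at 0.74 (adjusted p = 0.000627). Some markers of monocytes and neutrophils, of T and NK cells and of Kupffer cells were also higher in these arms (values above). Their part in these counts of all 3 lists was not tested. Of 15 tested cytokines and NF-κB feedback genes that can induce chemokines, 7 were higher in the plain LPS arm, 5 in the EF arm, 7 in the EF_PF arm and 5 in the EF_RD arm, while 2 were lower in the EF_PF arm and 1 in the EF_RD arm. Il1b was at 2.23 (adjusted p = 3.42e-06) and the NF-κB inhibitor Nfkbia at -0.33 (adjusted p = 0.251) in LPS against control livers. Tnf, Il6, Ifng, Il17a and Csf3 were too low to test.

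Genes related to chemokines by function but outside the name rule were mixed, with 3 higher and 3 lower of 8 tested in LPS against control livers. The EF, EF_PF and EF_RD arms had 1, 2 and 1 higher and 0, 3 and 0 lower. Of all genes, 18.6%, 14.6%, 19.2% and 12.8% were higher in the plain LPS, EF, EF_PF and EF_RD arms. In the same arms 18.1%, 14.5%, 17.3% and 10.7% were lower. Cmklr1, the chemerin receptor, was at 2.36 (adjusted p = 9.06e-06), and its ligand Rarres2 was at -0.50 (adjusted p = 0.000236). Sdc4, a heparan sulfate carrier that binds chemokines, was at -0.92 (adjusted p = 0.00358). The chemerin receptor thus rose, and its ligand fell, in LPS against control livers. Neither Rarres2 nor Sdc4 was called lower in the EF or EF_RD arm.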

How the data were processed

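RNA from 38 rat livers was sequenced, and the authors deposited a table of whole-number counts per gene and a table of TPM, a transcript abundance corrected for length. Per the file headers, the counts come from featureCounts 2.0.6 with an rn6 NCBI RefSeq annotation, read pairs and no use of strand. Per the submitters' processing notes, STAR, RSEM and featureCounts were used and the build was mRatBN7.2, which is not the build in that header, so all positions of genes are those of the header's rn6 annotation. The authors' TPM values were used only to compare levels between genes, and recomputing them from the counts moved no member value of 1 or more by over 0.0492%. The deposited counts range from 19716622 to 35835012 per library, no row lacked a gene name, and 0 columns were left unmapped.

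The test of the deposited counts was edgeR's quasi-likelihood test (version 4.0.16, R 4.3.3; 1 mean per group over all 38 libraries, TMM, minimum count 10 and minimum total 15), with Benjamini-Hochberg adjustment over 14786 genes within each of 17 comparisons and calls at an adjusted p under 0.05. SE are those of the log2 fold changes. The fit was tested on simulated counts with known changes. Alternatives were DESeq2 1.42.0, size factors, total counts, no filter, only the groups compared, a replicate block, each library left out in turn and, added after seeing the data, the 6 libraries that stood apart left out together. Intervals and floors cover counting error only. The series calls the samples biological replicates, and the labels give 1 batch.

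Members called in any comparison are named, with every library's value where called in at least 2 LPS comparisons or in any extract comparison. Members and gene lists were chosen with earlier results of these data known. Promoter motifs other than the κB consensus were added to those planned. Promoter sequences are RefSeq's (GRCr8), matched by symbol for 42 of 56 members.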

Additional observations from a re-analysis of the deposited data

Results flagged for a closer look

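In 27 of 192 combinations of a member and a group (24 members described by library, 8 groups of 4 or 5 livers), the highest or lowest liver lay apart from the rest by more than Dixon's 95% limit. Chance alone marks about 1 in 20 such groups. All values are CPM.

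Livers with LPS that lay high were Cxcl1 in LPS 1 (5.98), Cxcr4 in LPS 2 (10.3), Cxcl13 in LPS 3 (36.8), Ccl7 in LPS 3 (1.52), Cxcr6 in LPS 3 (0.777), Cxcl10 in LPS_EF 7 (2.51), Ccl24 in LPS_EF_RD 6 (4.93) and Ccl3 in LPS_EF_RD 2 (2.50). LPS-treated livers that lay low were Cxcl14 in LPS 4 (3.55), Ackr2 in LPS 2 (1.66), Ackr2 in LPS_EF_PF 6 (3.27), Cx3cr1 in LPS_EF 7 (0.374) and Cxcl9 in LPS_EF_RD 6 (15.6). LPS_EF 7 and LPS_EF_RD 6 thus stood on the side of their references, high for Cxcl10 and Ccl24 and low for Cx3cr1 and Cxcl9.

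Livers without LPS that lay high were Cxcr2 in EF 1 (4.00), Ccl7 in EF 1 (0.409), Ccl19 in EF 1 (2.18), Cxcl13 in EF_PF 1 (3.59), Cxcl1 in EF_RD 1 (62.3), Ccl7 in EF_RD 1 (0.259) and Cxcl16 in EF_RD 1 (5.58). Ccl6 in EF_RD 1 (24.6) and Ccl19 in EF_RD 4 (0.331) lay low. In control livers, Cxcl11 was high in control 3 (22.4), and Ccl2 (0.465), Cxcr2 (0.744), Cx3cr1 (0.977) and Ccr6 (0.744) were high in control 5. EF 1, EF_RD 1 and control 5 are the livers without LPS that had the highest summed monocyte and neutrophil markers (44.7, 21.1 and 19.9 CPM), and the part of those cells in these values was not tested.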

How the results depend on the processing

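Of 85 member calls, 63 were lost in no omission of 1 library in which they could be tested (Cxcl2 in LPS_EF against EF livers could not be without EF 2) and 22 were lost in at least 1. All 85 were kept with size factors of another kind, 82 with total counts, 82 with DESeq2, 76 without a filter, 69 with a replicate block and 78 without the 6 libraries that stood apart. A fit of only the groups compared kept 63 and lost 18, and the rest could not be tested in it. Member calls in LPS against control livers were 13 with the replicate block, in LPS_EF against EF livers 23 without the 6 libraries, and in LPS_EF_RD against EF_RD livers 13 with only the groups compared. In EF against control livers they were 2 with DESeq2, 0 with only the groups compared and 1 to 3 over the omissions. EF_PF against control livers gave 1 with total counts, without a filter, with only the groups compared, with the replicate block and without the 6 libraries, and 1 to 2 over the omissions. EF_RD against control livers gave 1 with only the groups compared, with the block and without the 6 libraries, and 1 to 2 over the omissions. LPS_EF against LPS livers gave 0 with only the groups compared. Cxcl1 in LPS_EF_RD against EF_RD livers reversed to 1.23 without the 6 libraries and to 1.45 without EF_RD 1. The cause of the other changes was not tested. Replicate numbers did not pair the livers: over 14 comparisons, correlations of deviations of same-numbered livers ran from -0.25 to 0.45, and in none with 3 or more pairs were all over 0.1. The 2 pairs of EF_RD and control livers had 0.16 and 0.20. Cxcl2, Ccl7 and Ccl11 rest on few counts.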
